A study of Mus musculus with 88 samples.

Results

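Undifferentiated mouse embryonic stem (ES) cells labelled Jarid2 null were compared with undifferentiated wild-type (WT) cells, using the libraries taken before any differentiation cue in the mesoderm and endoderm directed-differentiation series. The members were chosen by label alone: 4 Jarid2 null and 4 WT libraries, 2 of each genotype in each of the 2 count tables, or 8 of the 88 samples analysed here. All 8 samples carry the strain label E14 and were cells grown as a monolayer, and per the methods of the study both genotypes were kept in serum with leukemia inhibitory factor (LIF). The methods name JM8 as the background-matched wild type of the Jarid2 null line, whereas WT here is E14 (129/Ola). Loss of Jarid2 and the difference between 2 cell lines therefore cannot be told apart in this comparison. The other labels of the series cover later times of the same differentiations, Mtf2 null cells, single cells and embryoid bodies. Each gene is given in CPM, its count per 1000000 counts of the library after TMM normalization, a measure that compares libraries but not genes of different length.

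JARID2 is an accessory subunit of Polycomb repressive complex 2 (PRC2), whose catalytic core places methyl groups on lysine 27 of histone H3 and so helps to keep developmental genes silent. JARID2 and MTF2 belong to alternative forms of the complex. In ES cells PRC2 occupies the CpG-rich promoters of many lineage regulators, while the pluripotency network around Oct4 (Pou5f1), Sox2 and Nanog is active.

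Depth ran from 9883730 to 16365806 counts a library. The 8 libraries are not 8 independent cultures as far as the counts show, and the study describes its bulk replicates as technical. Libraries with the same genotype and number in the 2 tables differed by 1.69 to 2.57 times the sampling variance (median squared difference over genes), so they were not one library deposited 2 times. Libraries of the same genotype with different numbers differed by 4.56 to 7.77 times across tables and by 5.17 to 6.13 times within a table. Every p-value below treats the 8 libraries as separate. A fit with the same-numbered libraries of the 2 tables summed, which leaves 2 libraries a genotype, is therefore given beside the main counts. The shares of all genes given beside list counts at an adjusted p below 0.05 belong to the main fit. A lower count in the summed fit is therefore not a result about that list.

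**Figure D1:**
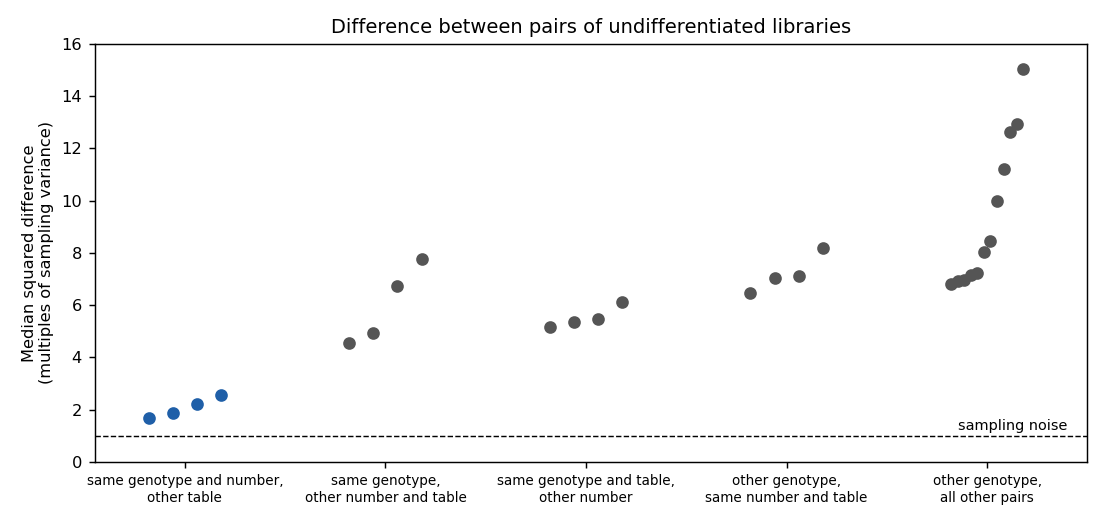
Difference between each pair of the 8 undifferentiated libraries, as the median over genes of the squared difference in multiples of its sampling variance (vertical axis; the dashed line at 1 is sampling noise alone), by what the 2 libraries share (horizontal axis). Each point is a pair; the 4 pairs that share genotype and number but come from different tables lie between 1.69 and 2.57, below every other pair.

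The Jarid2 transcript was lower but still abundant in the libraries labelled Jarid2 null. Jarid2 (ENSMUSG00000038518; chr13:44729474-44921643, GRCm38) stood at 480.3, 387, 470.0 and 368 CPM in WT and at 329, 323, 326 and 308 CPM in Jarid2 null, each series in the order mesoderm libraries 1 and 2, then endoderm libraries 1 and 2. The groups did not overlap (log2 fold change -0.41 ± 0.11 (SE), adjusted p = 0.0247), and the change was below the 2-fold call rule. A gene count does not show whether the remaining transcript encodes protein, and the study lists a protein blot as the check of its Jarid2 null line. At later times of both series, Jarid2 was lower in Jarid2 null at 24 h (190.1 to 287 against 316 to 340 CPM in WT). The genotypes overlapped at 5 h (546 to 636 against 571 to 684 CPM) and at 48 h (340 to 448 against 301 to 415 CPM). Mtf2, the subunit of the alternative complex, was at 381, 532, 451 and 533 CPM in WT and 425, 459, 463 and 448 CPM in Jarid2 null, and the groups overlapped (log2 fold change -0.08 ± 0.12 (SE), adjusted p = 0.694).

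No PRC2 gene passed the call rule, which asked for a Benjamini-Hochberg adjusted p below 0.001 in edgeR's quasi-likelihood test and a log2 fold change beyond 1. Among the 13 PRC2 genes tested, 2 were higher and 3 lower at an adjusted p below 0.05, against 9.18% and 7.1% of all 16488 genes tested. The higher ones were Ezh1, the second catalytic subunit (log2 fold change 0.32 ± 0.09 (SE), adjusted p = 0.0271), and Phf19, a Polycomb-like relative of Mtf2 (log2 fold change 0.56 ± 0.16 (SE), adjusted p = 0.0311). The lower ones were Jarid2 itself, the core subunit Eed (log2 fold change -0.33 ± 0.09 (SE), adjusted p = 0.0274) and Epop, an elongin-binding accessory subunit (log2 fold change -0.47 ± 0.11 (SE), adjusted p = 0.0163). The catalytic subunit Ezh2 (135, 113, 138 and 113 CPM in WT, 124, 112, 126 and 111 CPM in Jarid2 null) and the core subunit Suz12 (165, 170.1, 192 and 177 against 145, 143, 164 and 148 CPM) did not reach that limit, with adjusted p = 0.673 and 0.0763. With same-numbered libraries summed, the adjusted p was 0.376 for Jarid2, 0.369 for Ezh1, 0.164 for Phf19, 0.471 for Eed and 0.252 for Epop. Of 23 tested genes of Polycomb repressive complex 1, 0 were called, 3 were higher and 0 lower at an adjusted p below 0.05, with a median log2 fold change of 0.05; the summed libraries left 0 and 0.

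Of the 16488 genes tested, 140 (0.849%) were called, 71 (0.431%) higher and 69 (0.418%) lower in Jarid2 null. The median log2 fold change of all tested genes was -0.0047. At an adjusted p below 0.05 alone, 9.18% of all tested genes were higher and 7.1% lower, the shares to set beside the main-fit list counts below. All 140 had the same sign in both tables and for both replicate numbers. They were called from these same libraries, so this agreement and the separation given next follow largely from the selection and are not replication. In 71 of the 71 higher and 68 of the 69 lower genes, the 4 Jarid2 null libraries lay entirely to one side of the 4 WT libraries, a separation seen in 22.5% of all tested genes. The exception was the mitochondrial ribosomal RNA mt-Rnr1, whose WT libraries ran from 2.9 to 207 CPM. The median size of the change was 1.25 among the higher and 1.32 among the lower genes on the log2 scale. With same-numbered libraries summed, 111 genes were called, 89 of them among the 140. Called in every fit that left out 1 library were 60 of the 140 (23 higher, 37 lower). At the limit itself, mt-Rnr1 was the called gene with the highest adjusted p (9.74e-04), and Tmcc3 (log2 fold change 1.90, adjusted p = 0.00102) was the nearest gene outside.

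**Figure D2:**
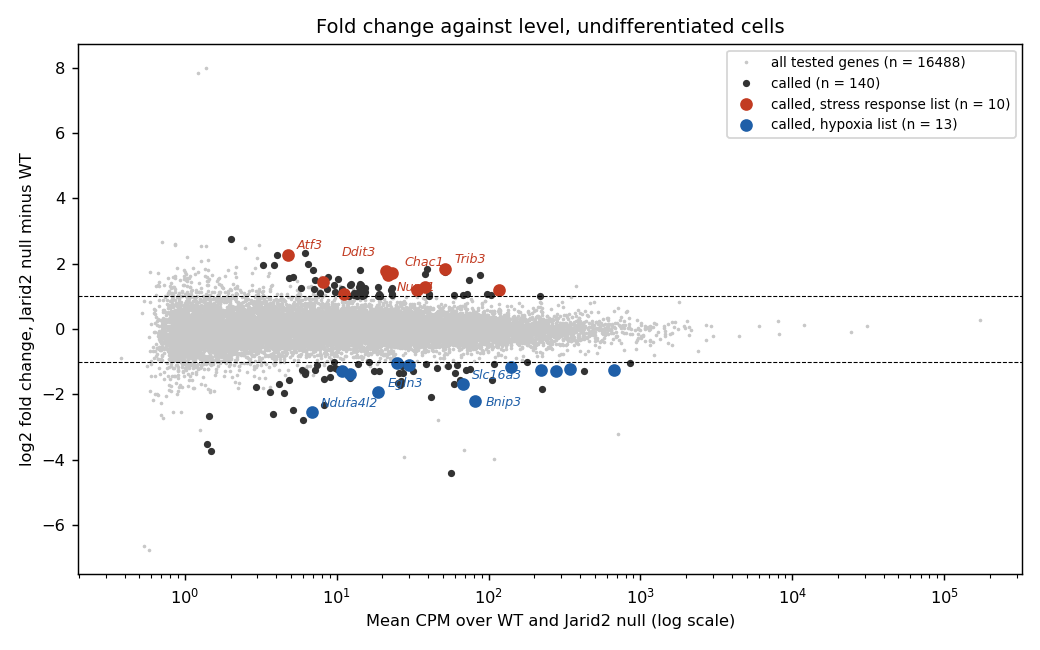
Log2 fold change of Jarid2 null against WT (vertical axis) by mean CPM of both genotypes (horizontal axis, log scale) for the 16488 tested genes in grey, with the 140 called genes in black and the called members of the stress response (10, red) and hypoxia (13, blue) lists on top; dashed lines mark a log2 fold change of 1 in either direction. All red points lie above the upper line and all blue points below the lower one.

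The called genes with the largest increases included many targets of the integrated stress response. In this response, phosphorylation of the translation factor eIF2 slows protein synthesis while the transcription factor ATF4 is made in larger amounts, and ATF4 with its partners turns on genes for amino acid supply, redox balance and, under lasting stress, cell death. Trib3, a pseudokinase gene switched on by ATF4, stood at 25.5, 19, 22.9 and 22.5 CPM in WT and at 96.5, 68.7, 89.1 and 69.2 CPM in Jarid2 null. Every Jarid2 null library was above every WT library (log2 fold change 1.85 ± 0.14 (SE), adjusted p = 2.47e-05). Ddit3, which encodes the transcription factor CHOP, held 11.9, 8.91, 8.77 and 8.83 CPM in WT and 39.1, 27.2, 36.4 and 28.9 CPM in Jarid2 null (log2 fold change 1.78 ± 0.15 (SE), adjusted p = 4.22e-05). Chac1, a gene for an enzyme that degrades glutathione, rose from 11.9, 8.82, 11.4 and 11.3 CPM to 42, 29.3, 40.9 and 29.1 CPM (log2 fold change 1.71 ± 0.16 (SE), adjusted p = 8.04e-05). Nupr1, a small stress-induced nuclear protein, was at 10.3, 11.4, 8.96 and 11 CPM in WT and 45.1, 24.9, 36.4 and 25.3 CPM in Jarid2 null (log2 fold change 1.66 ± 0.19 (SE), adjusted p = 2.51e-04). In all of these genes the Jarid2 null libraries numbered 1 were higher than those numbered 2, and both numbers were above WT.

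The transcription factor gene Atf3 was nearly silent in WT at 1.5, 2.18, 1.43 and 1.37 CPM and held 9.54, 6.45, 9.55 and 6.05 CPM in Jarid2 null (log2 fold change 2.28 ± 0.24 (SE), adjusted p = 1.58e-04). Gdf15, a secreted stress cytokine, was at 5.5, 5.09, 3.43 and 3.63 CPM in WT and 14.1, 10.8, 12.4 and 9.8 CPM in Jarid2 null (log2 fold change 1.43 ± 0.16 (SE), adjusted p = 2.38e-04). Ppp1r15a, whose product GADD34 guides the removal of the eIF2 phosphate, was at 28, 16.6, 24.6 and 19.7 CPM against 64.7, 45.2, 60.2 and 44.8 CPM (log2 fold change 1.28 ± 0.17 (SE), adjusted p = 8.65e-04). Each of these genes separated the genotypes without overlap. The autophagy receptor gene Sqstm1 (log2 fold change 1.19 ± 0.16 (SE), adjusted p = 8.02e-04), the neutral amino acid transporter gene Slc1a4 (log2 fold change 1.184 ± 0.12 (SE), adjusted p = 1.07e-04) and the lipoprotein receptor gene Vldlr (log2 fold change 1.07 ± 0.13 (SE), adjusted p = 5.15e-04) completed the called members.

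A list of 40 stress response genes was drawn up after these values had been seen, so its counts describe the pattern and are not support for it. Of 38 members tested, 10 were called higher and 0 lower, and 29 were higher and 0 lower at an adjusted p below 0.05. The median log2 fold change was 0.74. Atf4 itself stood at 178, 154, 152 and 150.4 CPM in WT and 322, 242, 313 and 242 CPM in Jarid2 null (log2 fold change 0.82 ± 0.12 (SE), adjusted p = 0.00126), which was below the 2-fold limit. Genes of amino acid uptake and one-carbon metabolism also lay above WT by less than that limit, such as Slc1a5 (log2 fold change 0.88 ± 0.10 (SE), adjusted p = 2.31e-04), Slc3a2 (log2 fold change 0.80 ± 0.13 (SE), adjusted p = 0.00199) and Mthfd2 (log2 fold change 0.85 ± 0.12 (SE), adjusted p = 0.0011). The serine synthesis genes Psat1 (0.07 ± 0.10) and Phgdh (0.18 ± 0.10), which ATF4 also regulates, and the cystine transporter gene Slc7a11 (-0.13 ± 0.25) did not pass at an adjusted p of 0.05. The summed libraries gave 8 called members, without Sqstm1 and Vldlr, and 19 higher at an adjusted p below 0.05. Fits without 1 library gave 4 to 8: 4 without WT endoderm library 1, 5 without WT endoderm library 2 or WT mesoderm library 2, and 6 without Jarid2 null mesoderm library 1. The call held in all 8 such fits for Trib3, Ddit3, Chac1 and Slc1a4, in 6 for Atf3 (lost without WT endoderm library 1 or 2), in 5 for Nupr1 (lost without WT mesoderm library 1 or 2 or WT endoderm library 1), in 4 for Gdf15 and in 1 each for Ppp1r15a, Sqstm1 and Vldlr.

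Chaperones of the endoplasmic reticulum, the targets of the ATF6 and IRE1 branches of the unfolded protein response, held no called gene and went both ways. Of 20 such genes on a second list added in the same way, 0 were called, 3 were higher and 2 lower at an adjusted p below 0.05, beside 9.18% and 7.1% of all genes tested, with a median of -0.01. The main chaperone gene Hspa5 was lower, at 449.9, 459, 425 and 439 CPM in WT and 355, 363, 369 and 334 CPM in Jarid2 null (log2 fold change -0.32 ± 0.08 (SE), adjusted p = 0.0245), and Hsp90b1 was lower as well (log2 fold change -0.44 ± 0.09 (SE), adjusted p = 0.00805). The sensor gene Atf6 was higher (log2 fold change 0.63 ± 0.11 (SE), adjusted p = 0.00421). In the summed libraries, 0 of the 20 had an adjusted p below 0.05, and it was 0.509 for Hspa5, 0.341 for Hsp90b1 and 0.0532 for Atf6.

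ATF4 and CHOP pair with C/EBP proteins at composite sites that contain the letters TGATGNAA, and the promoters of the called genes are shown here for that reason. The 250 bases before the annotated start of each gene were searched on both strands in the RefSeq promoter sequences (GRCm38.p6), with N standing for any base. Of 56 genes called higher with a promoter sequence, 6 (10.7%) held the motif, as did 0 of 44 called lower, 2.54% of 10948 tested genes and 3.45% of all 32851 promoters. The 6 were Atf3, Chac1, Hrk, Nupr1, Rab3il1 and Vldlr. Of these, Atf3, Chac1, Nupr1 and Vldlr are in the stress response list. Of all 30 tested genes of that list with a promoter sequence, called or not, 7 (23.3%) held the motif, so it is common in the list itself. Atf3 and Chac1 carried it 110 and 193 bases before the start, on the reverse strand of the gene, as the capitals mark, at chr1:191183334-191183583 (minus strand) and chr2:119350992-119351241 (plus strand). The letters were not found in this window of Trib3 or Ddit3. A match describes the sequence and does not show binding.
Atf3: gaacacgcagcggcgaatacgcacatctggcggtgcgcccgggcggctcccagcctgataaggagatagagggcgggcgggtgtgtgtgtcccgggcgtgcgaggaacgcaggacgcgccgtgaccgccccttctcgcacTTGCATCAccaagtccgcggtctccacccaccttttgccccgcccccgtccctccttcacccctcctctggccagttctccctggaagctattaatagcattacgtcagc
Chac1: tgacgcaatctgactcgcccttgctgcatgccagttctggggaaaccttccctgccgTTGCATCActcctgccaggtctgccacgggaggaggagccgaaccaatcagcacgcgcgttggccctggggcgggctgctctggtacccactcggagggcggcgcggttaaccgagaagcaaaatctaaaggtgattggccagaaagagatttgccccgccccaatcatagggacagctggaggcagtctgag

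Genes that rise when oxygen is scarce, and the glycolytic genes among them, were lower in Jarid2 null. Hypoxia-inducible factors (HIF) switch these genes on when oxygen-dependent prolyl hydroxylases no longer mark the HIF alpha subunit for destruction, and some of the targets are also active in ES cells under standard culture. Bnip3 (ENSMUSG00000078566), a mitochondrial receptor for mitophagy and a standard HIF target, stood at 112, 152, 122 and 144 CPM in WT and at 22.3, 34.3, 25.9 and 33.5 CPM in Jarid2 null (log2 fold change -2.20 ± 0.15 (SE), adjusted p = 2.11e-05). Its relative Bnip3l was at 174, 200.3, 192 and 215 CPM against 85.3, 83.7, 86.6 and 91.1 CPM (log2 fold change -1.17 ± 0.09 (SE), adjusted p = 2.23e-05). Neither gene overlapped between the genotypes. Egln3, one of the prolyl hydroxylases and itself a HIF target, fell from 33.1, 26.9, 31.5 and 27.7 CPM to 7.7, 7.9, 7.95 and 7.65 CPM (log2 fold change -1.93 ± 0.10 (SE), adjusted p = 9.58e-06). Ndufa4l2, a mitochondrial HIF target, was at 15.7, 8.998, 12.6 and 9.42 CPM in WT and 2.18, 2.36, 1.47 and 1.99 CPM in Jarid2 null (log2 fold change -2.55 ± 0.22 (SE), adjusted p = 6.11e-05). The lactate exporter gene Slc16a3 (MCT4) was at 117, 99.6, 104 and 95.8 CPM in WT and 29.6, 33.7, 31.3 and 34.3 CPM in Jarid2 null (log2 fold change -1.69 ± 0.10 (SE), adjusted p = 9.58e-06). Egln3 and Slc16a3 had the smallest adjusted p of the list, with Jarid2 null libraries that differed little from each other.

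Of the glycolytic enzymes, Tpi1 (triosephosphate isomerase) stood at 414, 401, 373 and 378 CPM in WT and 176, 151, 159.7 and 154 CPM in Jarid2 null (log2 fold change -1.29 ± 0.09 (SE), adjusted p = 1.97e-05). Pgk1 (phosphoglycerate kinase) was at 855, 988, 852 and 1072 CPM against 386, 396, 398 and 405 CPM (log2 fold change -1.25 ± 0.10 (SE), adjusted p = 4.78e-05), and the phosphofructokinase gene Pfkp at 304, 325, 308 and 316 CPM against 120.5, 148, 118 and 142 CPM (log2 fold change -1.25 ± 0.10 (SE), adjusted p = 4.14e-05). All WT libraries lay at more than 2 times the level of any Jarid2 null library in these 3 genes. The glucose transporter gene Slc2a1 (GLUT1) was at 529, 464, 496 and 449.9 CPM in WT and 212, 204, 207 and 204 CPM in Jarid2 null (log2 fold change -1.23 ± 0.09 (SE), adjusted p = 2.23e-05). Pfkfb3, a regulator of phosphofructokinase (log2 fold change -1.37 ± 0.14 (SE), adjusted p = 1.27e-04), Ndrg1 (log2 fold change -1.28 ± 0.17 (SE), adjusted p = 7.73e-04), the collagen prolyl hydroxylase gene P4ha1 (log2 fold change -1.08 ± 0.10 (SE), adjusted p = 8.72e-05) and the HIF prolyl hydroxylase gene Egln1 (log2 fold change -1.04 ± 0.14 (SE), adjusted p = 7.42e-04) were lower too.

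A hypoxia list of 43 genes, also written after these values had been seen, had 42 members tested, of which 13 were called lower and 0 higher. At an adjusted p below 0.05, 28 were lower and 2 higher, and the median log2 fold change was -0.65. The glycolysis and hypoxia list of 28 genes carried over from earlier work on these data had 9 called lower and 1 higher, with a median of -0.78. The 1 higher was Eno2, the neuronal enolase (log2 fold change 1.04 ± 0.12 (SE), adjusted p = 3.67e-04). Lactate dehydrogenase A (Ldha) was lower by just under the 2-fold limit (log2 fold change -0.99 ± 0.09 (SE), adjusted p = 8.72e-05). Several members did not go with the rest. Vegfa, the angiogenic growth factor, was higher (log2 fold change 0.42 ± 0.08 (SE), adjusted p = 0.00613), as was Pfkfb4 (log2 fold change 0.91 ± 0.18 (SE), adjusted p = 0.00654). Gapdh stood at 2577, 1826, 2332 and 1944 CPM in WT and 2533, 1919, 2244 and 1848 CPM in Jarid2 null (log2 fold change -0.02 ± 0.15 (SE), adjusted p = 0.936), and Hif1a (0.24 ± 0.10) and Vhl (0.03 ± 0.11) had adjusted p of 0.123 and 0.892. The summed libraries gave 11 called lower, without Pgk1 (adjusted p = 0.00125) and Egln1 (0.00143), and at an adjusted p below 0.05 they gave 19 lower and 0 higher. Vegfa (adjusted p = 0.218) and Pfkfb4 (0.0662) did not pass that limit, and the shorter list had 7 called, all lower. Fits without 1 library had 10 to 13 called lower. Of the 13, 10 were called in all 8 of these fits, P4ha1 in 7 (lost without WT mesoderm library 1), and Ndrg1 and Egln1 in 1. Without WT mesoderm library 1 the shorter list had 6 called instead of 10, and Eno2 was called in 1 of the 8 fits. Genes with highly similar pseudogene copies, among them Gapdh, Pgk1, Tpi1 and Ldha, can share reads with those copies, so their levels are less certain.

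The core of the hypoxia response element is ACGTG, so the promoters of called genes were searched for it in the same window and on both strands. It is a short motif, present in 24.8% of 10948 tested genes and 16.6% of all promoters. It was present in 20 of 44 genes called lower (45.5%), 11 of 56 called higher (19.6%) and 8 of the 10 called hypoxia genes with a promoter sequence (80%). Those 8 are also among the 20. Of all 35 tested hypoxia genes with a promoter sequence, called or not, 21 (60%) held it, so the motif is common in the list itself. A match does not show binding. Bnip3 has it on both strands in the palindrome CACGTG (chr7:138909507-138909756, minus strand), which counts as 2 overlapping matches. Pgk1 (chrX:106186850-106187099, plus strand) has 1 match on each strand and Slc16a3 (chr11:120948817-120949066, plus strand) 2 on its own strand, all in capitals below, whereas Tpi1 had no match in this window.
Bnip3: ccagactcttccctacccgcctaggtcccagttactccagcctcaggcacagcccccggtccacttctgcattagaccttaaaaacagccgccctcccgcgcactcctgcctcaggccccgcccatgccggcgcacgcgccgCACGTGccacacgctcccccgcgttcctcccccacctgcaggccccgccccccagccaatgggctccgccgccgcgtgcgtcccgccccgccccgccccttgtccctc
Pgk1: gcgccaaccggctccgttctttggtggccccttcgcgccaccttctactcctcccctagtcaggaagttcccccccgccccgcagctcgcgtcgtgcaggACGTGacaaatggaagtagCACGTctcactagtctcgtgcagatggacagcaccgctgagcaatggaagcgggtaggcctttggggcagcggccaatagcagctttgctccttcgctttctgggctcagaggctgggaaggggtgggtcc
Slc16a3: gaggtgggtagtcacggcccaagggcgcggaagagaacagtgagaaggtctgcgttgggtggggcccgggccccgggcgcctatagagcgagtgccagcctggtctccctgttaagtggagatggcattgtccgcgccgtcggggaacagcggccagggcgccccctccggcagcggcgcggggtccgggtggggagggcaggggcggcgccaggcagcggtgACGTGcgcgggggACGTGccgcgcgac

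**Figure D3:**
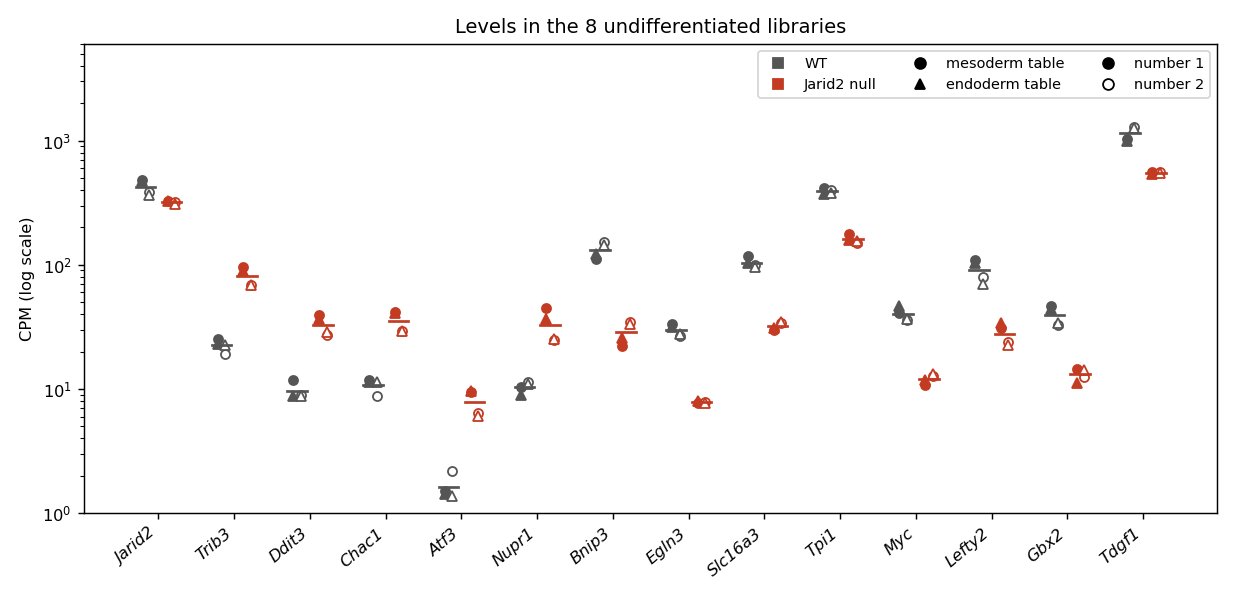
Level of 14 genes in the 8 undifferentiated libraries in CPM (vertical axis, log scale), WT in grey and Jarid2 null in red, with circles for the mesoderm and triangles for the endoderm table, filled symbols for number 1, open symbols for number 2 and a bar at the mean of 4. The stress genes Trib3 to Nupr1 lie higher and the genes Bnip3 to Tdgf1 lower in Jarid2 null, without overlap, while Jarid2 itself is lower by less.

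Growth control genes were among the called genes that fell. Myc, a regulator of growth and metabolism, stood at 41.2, 35.6, 46.4 and 36.7 CPM in WT and 10.7, 12.8, 11.7 and 13.3 CPM in Jarid2 null (log2 fold change -1.72 ± 0.11 (SE), adjusted p = 1.38e-05). Its relative Mycn was at 92.5, 75.1, 100.2 and 76.5 CPM against 31.7, 33.7, 35 and 35.9 CPM (log2 fold change -1.34 ± 0.11 (SE), adjusted p = 4.14e-05). Both genes were lower in 4 of 4 Jarid2 null libraries. The immediate early genes Ier3 (14.7, 13.9, 13 and 13.1 against 2.34, 3.45, 1.99 and 3.11 CPM, log2 fold change -2.34 ± 0.17 (SE), adjusted p = 2.23e-05) and Egr1 (log2 fold change -1.93 ± 0.20 (SE), adjusted p = 1.57e-04) also fell. The early gene Jun (log2 fold change 1.00 ± 0.20 (SE), adjusted p = 0.00723) did not reach the call rule. Of 14 immediate early genes tested, 3 were called lower and 1, Atf3, higher. At an adjusted p below 0.05 the list was evenly split, with 4 higher and 4 lower and a median log2 fold change of -0.006. The transferrin receptor gene Tfrc, which brings iron into the cell, was at 474, 668, 576 and 698 CPM in WT and 208, 257, 243 and 280.1 CPM in Jarid2 null (log2 fold change -1.29 ± 0.13 (SE), adjusted p = 1.30e-04). The calls of Myc, Mycn, Ier3 and Tfrc held in all 8 fits without 1 library. Egr1 lost its call without WT mesoderm library 1 or WT endoderm library 1 or 2, and the early gene list had 2 calls instead of 4 without either WT endoderm library.

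Among genes of the fibroblast growth factor (FGF) pathway that feed back on the signal, Spry4 was called lower and Dusp4 higher. Spry2 (log2 fold change -0.45), Spred1 (-0.56), Spred2 (-0.10), Dusp6 (-0.07) and Spry1 (-0.03) were not called. Spry4, an inhibitor that the pathway itself induces, was at 232, 169.9, 214 and 167 CPM in WT and 87.1, 86.8, 91.8 and 87.2 CPM in Jarid2 null (log2 fold change -1.15 ± 0.12 (SE), adjusted p = 1.28e-04). Dusp4, a phosphatase that acts on ERK, was at 5.1, 6.36, 5.24 and 5.004 CPM against 16.6, 10.6, 16.6 and 11.1 CPM (log2 fold change 1.34 ± 0.19 (SE), adjusted p = 9.43e-04). Spry4 was lower and Dusp4 higher in all 4 Jarid2 null libraries. Of 24 FGF pathway genes tested, 1 was called higher and 2 lower (Spry4 and Egr1), and 2 were higher and 9 lower at an adjusted p below 0.05. The median log2 fold change of the list was -0.29. Over all tested genes, 9.18% were higher and 7.1% lower at this limit. The ligand genes Fgf4 (log2 fold change -0.29 ± 0.08 (SE), adjusted p = 0.0254) and Fgf17 (log2 fold change -0.94 ± 0.10 (SE), adjusted p = 2.38e-04) were among the 9. Spry4 lost its call without Jarid2 null mesoderm library 2, and Dusp4 kept it in 1 of the 8 fits without 1 library. The FGF list had 1 call instead of 3 without WT mesoderm library 1 or WT endoderm library 1 or 2, and 2 otherwise. In the summed fit, neither Spry4 (adjusted p = 0.0012) nor Dusp4 (0.00114) was called, the list had 1 call, and Fgf4 had an adjusted p of 0.533.

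Several genes of Nodal and BMP signalling were lower. Lefty2, a secreted inhibitor of Nodal, stood at 108, 79.4, 103 and 70.2 CPM in WT and 30.8, 24, 33.8 and 22.7 CPM in Jarid2 null (log2 fold change -1.69 ± 0.17 (SE), adjusted p = 1.25e-04). Tdgf1, the Nodal co-receptor Cripto, was at 1028, 1276, 991 and 1272 CPM against 560.4, 562, 539 and 550.4 CPM (log2 fold change -1.05 ± 0.11 (SE), adjusted p = 1.98e-04), and the ligand gene Bmp4 at 48.9, 42.7, 48.3 and 40.03 CPM against 19.3, 17.2, 19.09 and 17.8 CPM (log2 fold change -1.29 ± 0.10 (SE), adjusted p = 2.47e-05). None of these 3 genes overlapped between genotypes. The inhibitory Smad gene Smad7 was also lower (log2 fold change -0.68 ± 0.09 (SE), adjusted p = 5.95e-04), and Lefty1 likewise (log2 fold change -0.66 ± 0.18 (SE), adjusted p = 0.0328), both short of the call rule. Nodal itself stood at 35, 31.8, 38 and 31.6 CPM in WT and 35.6, 29.1, 34.1 and 32.2 CPM in Jarid2 null (log2 fold change -0.06 ± 0.10 (SE), adjusted p = 0.733), and the BMP target genes Id1 (-0.04 ± 0.09) and Id3 (-0.15 ± 0.15) had adjusted p of 0.782 and 0.535. Of 32 tested genes of this family, 3 were called lower and 0 higher, and 8 were lower and 1 higher at an adjusted p below 0.05. Over all tested genes, 7.1% were lower and 9.18% higher at this limit. With same-numbered libraries summed, Tdgf1 was no longer called (adjusted p = 0.00799), while Lefty2 (2.56e-05) and Bmp4 (7.03e-05) were. In that fit Lefty1 had an adjusted p of 0.0958, and 4 genes of the list were lower and 0 higher at an adjusted p below 0.05. Lefty2 and Bmp4 were called in all 8 fits without 1 library and Tdgf1 in 3. In the WNT list, Notum, which inactivates WNT proteins, was the only called gene of 30 (log2 fold change -1.32 ± 0.16 (SE), adjusted p = 4.42e-04; summed libraries, adjusted p = 0.00257), and in the Notch list Notch4 was the only one of 21 (log2 fold change -1.03 ± 0.10 (SE), adjusted p = 9.90e-05). Notum was called in 1 of the fits without 1 library, and Notch4 in 6 (lost without mesoderm library 1 of either genotype).

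Markers of the ES cell state were present in every library and partly lower. Pou5f1 stood at 952, 792, 839 and 756 CPM in WT and 881, 689, 831 and 682 CPM in Jarid2 null, and the groups overlapped (log2 fold change -0.11 ± 0.12 (SE), adjusted p = 0.563). Nanog was at 418, 471, 410.1 and 488 CPM against 335, 331, 322 and 315 CPM (log2 fold change -0.46 ± 0.09 (SE), adjusted p = 0.00751), and Sox2 at 217, 167, 228 and 163 CPM against 134, 121, 132 and 126 CPM (log2 fold change -0.60 ± 0.12 (SE), adjusted p = 0.00712). Both were lower in 4 of 4 libraries, by less than the call rule asks. Zfp42 (Rex1) was lower (log2 fold change -0.66 ± 0.08 (SE), adjusted p = 5.18e-04), and Klf4 was as well (log2 fold change -0.46 ± 0.13 (SE), adjusted p = 0.0359), while Esrrb (0.07 ± 0.16) and Tfcp2l1 (0.17 ± 0.15) had adjusted p of 0.803 and 0.503. Of 22 naive pluripotency genes, 1 was called lower (Tdgf1), and 10 were lower and 0 higher at an adjusted p below 0.05 (all genes, 7.1% and 9.18%), with a median of -0.31. With same-numbered libraries summed, 0 of these were called and 2 were lower at an adjusted p below 0.05. The adjusted p was then 0.286 for Nanog, 0.122 for Sox2, 0.0816 for Zfp42 and 0.272 for Klf4.

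No formative gene was called. Of 17 tested, 0 were called, and 5 were lower and 0 higher at an adjusted p below 0.05 (2 and 0 with same-numbered libraries summed). Over all genes in the main fit, 7.1% were lower and 9.18% higher at this limit. Dnmt3l, a cofactor of the de novo DNA methyltransferases, was at 174, 164, 166 and 161 CPM in WT and 93.8, 92.9, 90.7 and 89.9 CPM in Jarid2 null (log2 fold change -0.85 ± 0.08 (SE), adjusted p = 7.02e-05). Otx2, a regulator of the exit from naive pluripotency, was at 2.7, 2.18, 1.71 and 1.57 CPM in WT and 1.42, 2.18, 1.22 and 1.75 CPM in Jarid2 null (log2 fold change -0.30 ± 0.27 (SE), adjusted p = 0.497). Dppa3 stood at 1.5, 2.09, 1.33 and 1.96 CPM in WT and 1.17, 1.64, 1.22 and 0.956 CPM in Jarid2 null (log2 fold change -0.47 ± 0.30 (SE), adjusted p = 0.314). The homeobox gene Gbx2, a LIF-responsive gene and later a hindbrain regulator, fell from 47, 33, 43.9 and 33.8 CPM to 14.5, 12.5, 11.3 and 14.3 CPM (log2 fold change -1.58 ± 0.14 (SE), adjusted p = 6.55e-05). The forkhead gene Foxd3 was at 20.3, 15.5, 20.5 and 16 CPM against 7.62, 6.09, 5.64 and 6.05 CPM (log2 fold change -1.51 ± 0.14 (SE), adjusted p = 9.73e-05).

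Most lineage regulators, the classic targets of PRC2, did not pass the filter on low counts or were not called. T (Brachyury) and Foxa2 did not pass the filter, with at most 5 and 8 counts in any library. Eomes (4.2, 2.36, 2.86 and 2.65 CPM in WT, 1.59, 1.82, 2.63 and 1.99 in Jarid2 null), Gata6 (2.00, 1.91, 1.91 and 2.26 against 2.6, 1.82, 2.24 and 2.39), Pax6 (2.9, 3.64, 3.05 and 2.35 against 3.85, 3.27, 1.92 and 2.15) and Pdgfra (1.8, 2.73, 3.43 and 2.75 against 2.85, 4.36, 3.2 and 2.23) were tested and overlapped between the genotypes. Their adjusted p ran from 0.175 (Eomes) to 0.739 (Pax6). Sox11 was lower (log2 fold change -0.51 ± 0.13 (SE), adjusted p = 0.0202; summed libraries, adjusted p = 0.157). Gata2, a regulator of blood progenitors, was higher without a call, at 4.1, 3.18, 3.81 and 3.43 CPM in WT and 14.6, 5.27, 14.9 and 6.69 CPM in Jarid2 null (log2 fold change 1.52 ± 0.33 (SE), adjusted p = 0.00998). The groups did not overlap. Of 39 Hox genes, 3 passed the filter, and all 3 were higher at an adjusted p below 0.05 without a call. Hoxb9 was at 1.00, 0.636, 0.572 and 0.981 CPM in WT and 1.51, 1.82, 1.92 and 1.83 CPM in Jarid2 null (log2 fold change 1.14 ± 0.32 (SE), adjusted p = 0.0303), and Hoxc13 at 1.5, 1.27, 0.953 and 1.86 CPM against 2.76, 2.45, 2.88 and 3.74 CPM (log2 fold change 1.07 ± 0.27 (SE), adjusted p = 0.0213). In the summed libraries, 1 of the 3 kept an adjusted p below 0.05, and it was 0.158 for Hoxb9 and 0.0977 for Hoxc13. The other 36 are not counted here, and a Hox gene that passed only through the genotype where it is higher had to differ. The germ-layer lists had few members above the filter: 6 of 21 primitive streak, 7 of 26 mesoderm and 13 of 50 neural genes, with 1 called lower in each (Lefty2, Bmp4 and Gbx2) and 0 higher. In the mesoderm list 1 gene was higher and 1 lower at an adjusted p below 0.05, and the median log2 fold change of its 7 tested genes was 0.50.

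Other lists with 0 called genes were germline genes (31 tested; 4 higher and 5 lower at an adjusted p below 0.05), imprinted genes (30; 3 and 2), axon guidance genes (52; 10 and 4), cadherins (14; 1 and 0), endoderm (15; 0 and 0), trophoblast (12; 3 and 1) and DNA methylation genes (10; 1 and 2). The lists of Dppa-type genes (10 tested; 0 and 4), 2-cell genes (6; 0 and 0), demethylases (9; 0 and 1) and cell-cycle genes (17; 0 and 3) had 0 called as well. Over all tested genes, 9.18% were higher and 7.1% lower at an adjusted p below 0.05. The counts of the imprinted genes lie near those shares. Of 19 p53 target genes, 1, Gdf15, was called higher, and 5 were higher and 1 lower at an adjusted p below 0.05. Mdm2, the p53 inhibitor that p53 itself induces, was higher by less than 2-fold (log2 fold change 0.61 ± 0.08 (SE), adjusted p = 7.42e-04; summed libraries, adjusted p = 0.0561). In the summed fit, 1 axon guidance gene was higher and 1 lower at an adjusted p below 0.05, and 0 germline and 0 imprinted genes passed. In that fit 2 Dppa-type genes were lower, and 1 p53 target was higher. The shares of all genes above are not of that fit, so these falls are not results about the lists.

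No feeder fibroblast marker passed the test. Of 18 such markers 7 were tested, 0 of them differed at an adjusted p below 0.05, and their summed level ran from 104 to 147 CPM in WT and from 99.6 to 118 CPM in Jarid2 null. Col1a1 was at most 2.63 CPM in any library. The summed trophoblast markers ran from 90.3 to 107 CPM in WT and from 103 to 131 CPM in Jarid2 null, the endoderm markers from 459 to 538 and from 499.9 to 602 CPM, and the neural markers from 129.5 to 171 and from 103 to 115 CPM. The part of other cell types in the results was not tested.

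Mitochondrial transcripts were partly lower in Jarid2 null. Of 13 mitochondrial mRNAs, 1, mt-Nd6, was called lower (118, 113, 69 and 102 CPM in WT, 46.6, 47.7, 39.6 and 33.1 in Jarid2 null, log2 fold change -1.26 ± 0.12 (SE), adjusted p = 9.90e-05), and 7 were lower and 0 higher at an adjusted p below 0.05, with a median of -0.47. Their summed level ran from 13599.5 to 17938 CPM in WT and from 12149 to 13482 CPM in Jarid2 null. The part of these transcripts in the other changes was not tested. The ribosomal RNA mt-Rnr1 was at 2.9, 44.9, 177 and 207 CPM in WT and 2.51, 1.181, 6.54 and 8.13 CPM in Jarid2 null, and the groups overlapped.

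The remaining genes with the largest increases had varied roles. Plk3, a stress-activated kinase, stood at 21.2, 17.5, 16.2 and 14.3 CPM in WT and 72.8, 54.4, 67.7 and 49.7 CPM in Jarid2 null (log2 fold change 1.83 ± 0.14 (SE), adjusted p = 2.48e-05). Hrk, a BH3-only gene that promotes apoptosis, was at 7.8, 5.73, 7.53 and 4.02 CPM against 24.4, 18.7, 26.9 and 18.5 CPM (log2 fold change 1.82 ± 0.20 (SE), adjusted p = 2.23e-04). Prph, the intermediate filament gene peripherin, was at 12.9, 10.2, 9.15 and 10.7 CPM against 39, 30.6, 38.1 and 29.6 CPM (log2 fold change 1.68 ± 0.13 (SE), adjusted p = 3.34e-05). All 3 were higher in every Jarid2 null library than in any WT library. Ahnak2 (log2 fold change 1.76 ± 0.16 (SE), adjusted p = 8.04e-05), the focal adhesion gene Tgfb1i1 (log2 fold change 2.27 ± 0.24 (SE), adjusted p = 1.47e-04), the adhesion receptor gene Adgra2 (log2 fold change 1.99 ± 0.22 (SE), adjusted p = 2.05e-04), the glycosyltransferase gene B4galnt2 (log2 fold change 1.96 ± 0.27 (SE), adjusted p = 9.06e-04), Ubap1l (log2 fold change 2.32 ± 0.30 (SE), adjusted p = 6.51e-04), Cnbd2 (log2 fold change 1.96 ± 0.22 (SE), adjusted p = 2.56e-04) and Lexm (log2 fold change 1.81 ± 0.17 (SE), adjusted p = 8.72e-05) rose as well. Plk3, Prph, Ahnak2 and Lexm were called in all 8 fits without 1 library. Tgfb1i1 lost its call without WT endoderm library 1, Hrk and Adgra2 lost theirs without Jarid2 null mesoderm library 1 or WT mesoderm library 2, and Cnbd2 was called in 2, and Ubap1l and B4galnt2 in 1 each, of the 8 fits. B4galnt2 lost its call in 15 of 26 alternative settings.

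Among the largest decreases, A2m, the protease inhibitor alpha-2-macroglobulin, stood at 11.1, 9.27, 12.5 and 8.93 CPM in WT and 1.17, 1.998, 1.28 and 1.59 CPM in Jarid2 null (log2 fold change -2.79 ± 0.21 (SE), adjusted p = 2.47e-05). Grin1, a subunit gene of the NMDA receptor, was at 9.2, 9.82, 7.81 and 8.14 CPM against 1.59, 1.998, 1.153 and 1.59 CPM (log2 fold change -2.47 ± 0.18 (SE), adjusted p = 2.23e-05). Enox1 fell from 68.2, 66.4, 70.1 and 66.3 CPM to 14.7, 21.3, 13.1 and 16.3 CPM (log2 fold change -2.07 ± 0.13 (SE), adjusted p = 1.38e-05). These genes lost more than 3 in 4 of their WT mean. Aire, known for driving self-antigen expression in the thymus (log2 fold change -1.97 ± 0.21 (SE), adjusted p = 2.10e-04), Hopx, a homeodomain-only gene (log2 fold change -1.67 ± 0.19 (SE), adjusted p = 2.53e-04), and Anxa2, an annexin (log2 fold change -1.64 ± 0.10 (SE), adjusted p = 9.58e-06), were lower too, as was Trh, the thyrotropin-releasing hormone gene, at 177, 147, 157 and 146 CPM in WT and 62.4, 49.7, 54.4 and 46.7 CPM in Jarid2 null (log2 fold change -1.55 ± 0.11 (SE), adjusted p = 1.97e-05). Aire lost its call without WT endoderm library 2 and Hopx was called in 1 of the 8 fits without 1 library, while the other 5 genes were called in all 8. In the summed fit, Hopx was no longer called (adjusted p = 0.00104). Called genes lay on every chromosome but Y, and on chromosomes other than M the median log2 fold change lay between -0.07 and 0.05. Chromosome 14, with the lowest of these medians, held 1 called higher and 9 called lower of 600 tested. That is 1.67% called, beside 0.849% of all tested genes. A difference between the 2 cell lines on this chromosome was not tested.

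The genotype effect was estimated within each table and each replicate number. Within the mesoderm table, with 2 libraries against 2, 0 of 16488 genes (0%) were called in the joint fit, with 2673 at an unadjusted p below 0.05. The endoderm libraries gave 4 calls (0.0243%), all lower. The difference between the tables was called for 0 genes (0%; 141 at an unadjusted p below 0.05 and 0 at an adjusted p below 0.05, edgeR). Each table fitted alone gave 61 and 73 calls. The difference of the genotype effect between number 1 and number 2 libraries was called for 0 genes and had an adjusted p below 0.05 for 548. Trib3 rose by 1.94 in the number 1 and 1.73 in the number 2 libraries on the log2 scale, and Bnip3 changed by -2.28 and -2.13. Of the called genes, 52 of 71 higher and 57 of 69 lower exceeded a log2 fold change of 1 for both numbers. These genes were chosen by their change in the same libraries, so the counts are not a replication.

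Mtf2 null cells of the same tables allow a direct test between mutants. Of 17155 genes tested over 12 libraries, 2363 (13.8%) were called between Jarid2 null and Mtf2 null, 1152 (6.72%) higher and 1211 (7.06%) lower in Jarid2 null. Among the 71 genes called higher against WT, 20 were higher and 5 lower in Jarid2 null than in Mtf2 null, and among the 69 called lower, 5 were higher and 21 lower. Both sets were chosen on the same Jarid2 null libraries, so an excess in the chosen direction is partly built in. Bnip3 (log2 fold change 0.27, adjusted p = 0.115), Egln3 (log2 fold change 0.05, adjusted p = 0.768) and Tpi1 (log2 fold change 0.15, adjusted p = 0.147) did not pass this test, nor did Trib3 (log2 fold change 0.09, adjusted p = 0.583). Ddit3 was higher in Jarid2 null (log2 fold change 1.88, adjusted p = 2.87e-08), and Atf3 was lower by less than 2-fold (log2 fold change -0.997, adjusted p = 2.10e-04). Slc16a3 was higher in Jarid2 null (log2 fold change 1.46, adjusted p = 3.76e-09), and Myc (log2 fold change -1.20, adjusted p = 9.35e-08), Mycn (log2 fold change -2.84, adjusted p = 1.07e-11) and Enox1 (log2 fold change -1.57, adjusted p = 2.36e-08) were lower.

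Many of the called genes changed the same way in Mtf2 null against the same WT libraries. Of the 71 called higher, 33 were called higher and 4 lower in Mtf2 null, with a median log2 fold change of 0.98. Of the 69 called lower, 33 were called lower and 2 higher, with a median of -0.88. Both mutants share these WT libraries, so part of this likeness is built in. The Mtf2 null log2 fold change was 1.76 for Trib3, 2.49 for Chac1 and -0.09 for Ddit3, beside 1.85, 1.71 and 1.78 in Jarid2 null. It was -2.48 for Bnip3, -1.44 for Tpi1 and -1.70 for Ldha, beside -2.20, -1.29 and -0.99. The list medians were 1.0 for stress response and -0.51 for hypoxia in Mtf2 null, beside 0.74 and -0.65 in Jarid2 null. Jarid2 itself was higher in Mtf2 null (920.1 to 1055 CPM) than in the WT libraries.

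At later times the genotype difference in these genes was seen again mainly at 24 h of mesoderm differentiation. There, 69 of the 71 genes called higher in undifferentiated cells had the same sign, 18 were called higher and 0 lower, and their median log2 fold change was 0.97 (all genes, -0.04; called higher, 0.735%). Of the 69 called lower, 57 had the same sign, 13 were called lower and 1 higher, with a median of -0.58 (called lower, 1.24%). Atf3 (log2 fold change 2.03, adjusted p = 2.71e-04), Sqstm1 (log2 fold change 1.29, adjusted p = 4.05e-04) and, downwards, Lefty2 (log2 fold change -1.99, adjusted p = 1.27e-05) and Myc (log2 fold change -1.13, adjusted p = 6.19e-04) were called there. At 24 h of endoderm differentiation, 69 of the 71 kept their sign with a median of 0.56, but 0 were called (0% of all genes called higher; 1740 genes of either direction at an unadjusted p below 0.05). At 5 h the medians of the genes called higher were 0.06 (mesoderm) and 0.19 (endoderm), and at 48 h 0.04 and -0.21. The headers of both endoderm Jarid2 null libraries labelled 48 h give an earlier time. They were assigned to 48 h by their library number. In the mesoderm table at 5 h, edgeR called 0 genes, with 2672 at an unadjusted p below 0.05.

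The hypoxia genes were no longer called at 5 h. In WT of the mesoderm table, Bnip3 stood at 111 and 146 CPM in undifferentiated cells and at 3.76 and 4.82 CPM at 5 h, beside 4.88 and 5.16 CPM in Jarid2 null at 5 h. Of 42 hypoxia genes, 0 were called at 5 h in either table, where 0% (mesoderm) and 0.0366% (endoderm) of all genes were. Trib3 stood at 25.1 and 18.2 CPM in undifferentiated WT and at 59.9 and 59.8 CPM at 5 h of mesoderm differentiation, where Jarid2 null held 60.6 and 54.9 CPM. Of the stress response genes, 12 of 39 had a positive log2 fold change at 5 h of mesoderm differentiation (median -0.06). At 24 h 32 of 39 did (median 0.52), and 5 of 39 did at 48 h (median -0.24). In endoderm differentiation, 32 of 40 did at 5 h (median 0.15) and 34 of 40 at 24 h (median 0.29). At 48 h of endoderm differentiation 1 of 40 did (median -0.40, all genes 0.02). There Ddit3 was at 9.96 and 9.75 CPM in Jarid2 null and 21.2 and 41.8 CPM in WT. It was called lower (log2 fold change -1.70, adjusted p = 7.65e-04), as were 0.0836% of all genes. Ddit3 and the list median there had the opposite direction from undifferentiated cells. The headers of these Jarid2 null libraries give an earlier time than 48 h. If the headers are right, a difference in time cannot be told apart from genotype here.

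**Figure D4:**
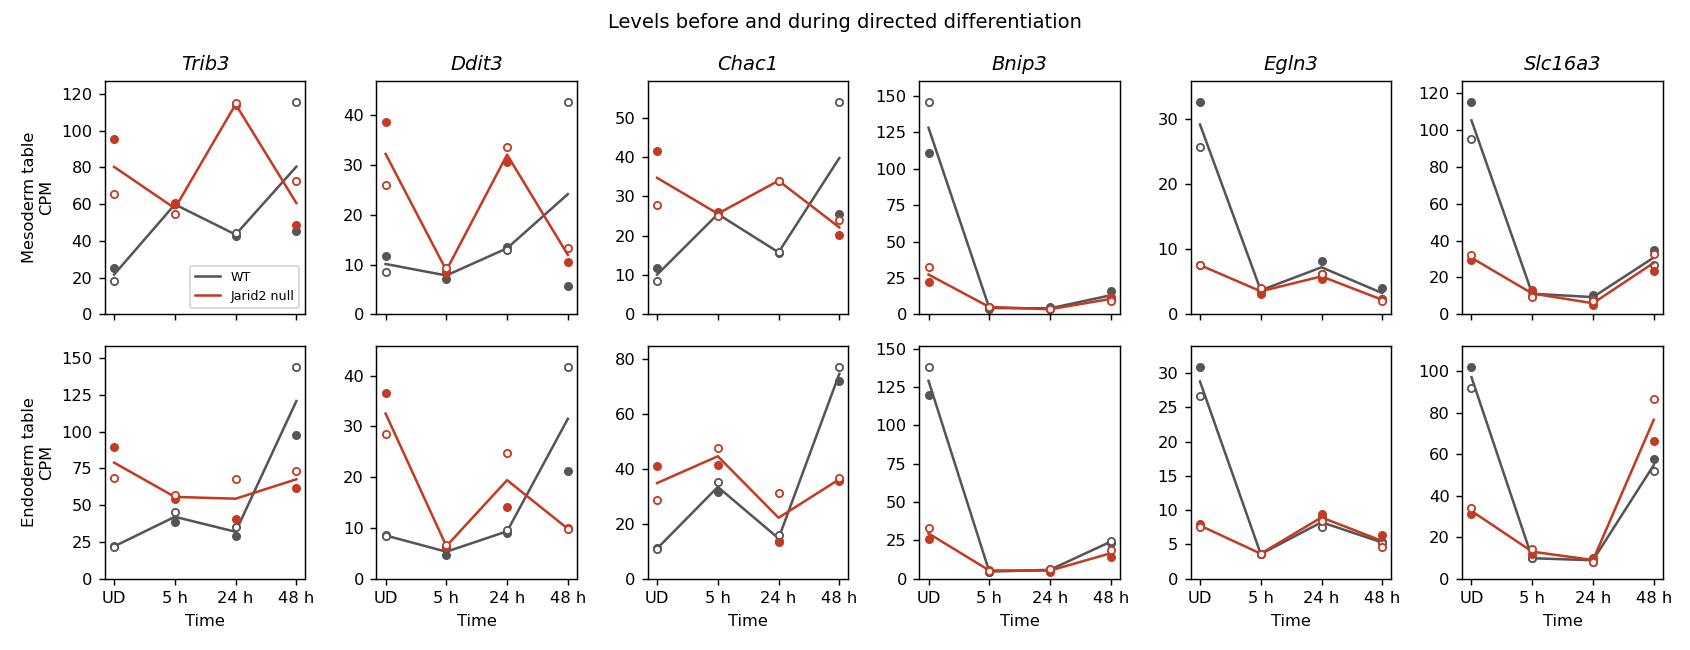
CPM of 6 genes (columns) in undifferentiated cells (UD) and at 5, 24 and 48 h of mesoderm (upper row) and endoderm (lower row) differentiation, WT in grey and Jarid2 null in red; filled and open points are libraries 1 and 2, lines join the means of 2, and libraries were scaled within each table. Bnip3, Egln3 and Slc16a3 are higher in WT in undifferentiated cells and low in both genotypes at 5 h, and Trib3, Ddit3 and Chac1 are higher in both Jarid2 null libraries than in WT at 24 h in the mesoderm table. The endoderm Jarid2 null libraries at 48 h were placed by library number, as their headers give an earlier time.

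A separate single-cell assay at day 0 held 1 library a genotype, so its ratios have no test. After leaving out wells with fewer than 500 genes, 366 WT wells (3471242 unique molecular identifiers, UMIs) and 370 Jarid2 null wells (3902582 UMIs) were summed. Jarid2 had 1786 UMIs in WT and 471 in Jarid2 null, a ratio of 0.235 after scaling to total UMIs. In CPM (UMIs per 1000000 UMIs of the library) this was 514.5 (exact 95% Poisson interval 490.9 to 539) in WT and 121 (110.0 to 132) in Jarid2 null, and such intervals cover counting error only. Of the genes called lower with at least 50 UMIs, 9 of 52 (17.3%) were higher and the rest lower in Jarid2 null, beside 35.65% higher over all 8957 genes, with a median log2 ratio of -0.63 against -0.17. The hypoxia genes were part of this: Bnip3 had 1054 and 430 UMIs (ratio 0.363), Slc16a3 137 and 35 (0.227), Ndufa4l2 94 and 5 (0.0473) and Slc2a1 692 and 400 (0.514). The interval of Slc16a3 ran from 33.1 to 46.7 CPM in WT and from 6.25 to 12.5 CPM in Jarid2 null. Lefty2 (1836 and 430, ratio 0.208) and Bmp4 (1936 and 684, 0.314) were lower as well. Of the genes called higher, 12 of 34 were higher (35.3%), near the share of all genes, with a median of -0.28. Of 31 stress response genes, 18 were higher (58.1%), with a median of 0.04. Trib3 had 53 and 101 UMIs (ratio 1.70, the direction of the bulk libraries; intervals 11.4 to 20.0 and 21.1 to 31.5 CPM), whereas Chac1 (183 and 170, 0.826), Ppp1r15a (206 and 161, 0.695) and Sqstm1 (1001 and 965, 0.858) had ratios below 1, and Ddit3 had 4 and 3 UMIs, too few to compare. Gbx2 (442 and 562, ratio 1.13) and Spry4 (564 and 632, 0.997) did not show the decrease seen in bulk.

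**Figure D5:**
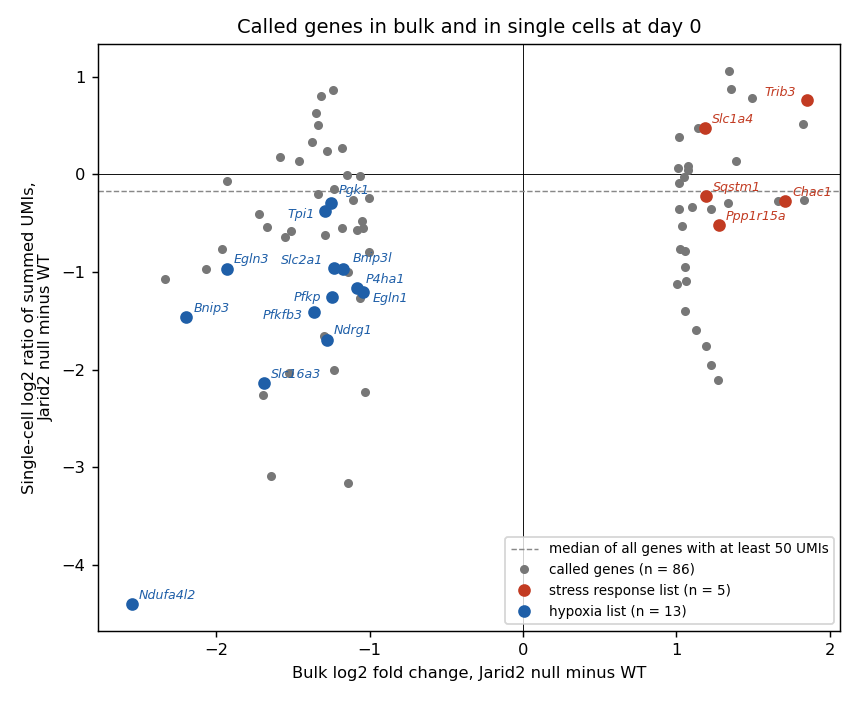
Log2 ratio of summed UMIs, scaled to library totals, at day 0 in single cells (vertical axis, 1 library a genotype, no replicate) by bulk log2 fold change (horizontal axis), both Jarid2 null minus WT, for the 86 called genes with at least 50 UMIs in all; the dashed line is the median of 8957 genes. All 13 hypoxia genes (blue) are below zero on both axes, while 3 of 5 stress response genes (red) are below zero on the single-cell axis.

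The bulk embryoid body series has a day 0 sample of each line, including the matched JM8, but its values at day 0 went against the labels. Of 156 genes that parted the Jarid2 null and Mtf2 null labels by more than 2-fold in the same direction at days 2, 4 and 7, 154 had the opposite direction at day 0. The library labelled Jarid2 null at day 0 held 673 and 660 normalized counts of Mtf2 in its 2 runs, and the one labelled Mtf2 null 1600 and 1656. JM8 held 1560 and 1518. Under the Mtf2 null label, Mtf2 was lower than in JM8 at day 2 (1266 and 1044 against 1918 and 1608). It was not lower at day 4 (1191 and 1250 against 968.5 and 1044) and was close to JM8 at day 7 (917 and 854 against 924 and 993). The Mtf2 level alone therefore does not identify the line in this series. Against JM8, the day 0 library labelled Jarid2 null had 36 of 48 called-higher and 31 of 52 called-lower genes higher, beside 46.4% of all 9699 genes. No direction was drawn from it.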

How the data were processed

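RNA was depleted of ribosomal RNA and sequenced paired-end, and the authors estimated counts per gene with Salmon (deposited as estimated counts on GRCm38, rounded here to whole numbers). The deposited single-cell tables hold counts of UMIs per gene and well. The deposited embryoid body signal is gene counts that the authors divided by size factors, with 1 sample a line and day in 2 runs. Depth of the 8 libraries was 9883730 to 16365806 counts. Genes passing filterByExpr were fitted with edgeR 4.0.16 (R 4.3.3; TMM, quasi-likelihood F test, Benjamini-Hochberg adjusted p) with genotype and table as terms, and SE is the size of the log2 fold change over the root of F. The 12-library and later-time tests used the same tool. Numbers within a table pair the libraries: deviations of same-numbered libraries correlated at 0.170 to 0.409 between genotypes within a table, so a fit with that block was also run. Alternatives used DESeq2 1.42.0, limma 3.58.1 and other filters. Nothing says that the libraries came from separate cultures, so p-values may measure technical spread. Genes were named by a rule: Jarid2 and PRC2 subunits, the 15 largest separated changes in each direction with at least 5 CPM, up to 5 called members a list and lineage genes that the study discusses; other genes named were picked after their values were seen. The comparison and lists were chosen with earlier results of these data known, and the stress response, chaperone and hypoxia lists after these values were seen. Fits were tested on simulated data. Single-cell and embryoid body ratios have 1 library a side, with no test.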

Additional observations from a re-analysis of the deposited data

Results flagged for a closer look

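In 8 of 128 groups of 4 libraries (a named gene in 1 genotype), the highest or lowest library stood apart from the other 3 by Dixon's criterion, which chance alone meets in about 1 of 20 groups. In WT, mesoderm library 1 was highest for Ddit3 (11.9 CPM, next 8.908) and Egr1 (6.7 CPM, next 5.544). Mesoderm library 2 was highest for Atf3 (2.181 CPM, next 1.5) and Lexm (3.545 CPM, next 2.953), and endoderm library 1 was lowest for Phf1 (4.192 CPM, next 5.397). In Jarid2 null, mesoderm library 2 was highest for Aebp2 (77.84 CPM, next 72.34), and endoderm library 1 was highest for Eed (183.6 CPM, next 171.9) and Spry4 (91.75 CPM, next 87.16). In Ddit3, Egr1, Atf3, Lexm, Eed and Spry4 the library that stood apart was still on its own genotype's side of all 4 libraries of the other genotype. For Phf1 and Aebp2 the genotypes did not differ at an adjusted p below 0.05.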

How the results depend on the processing

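The 140 calls became 340 without the filter on low counts, 15 at a log2 fold change above 2 and 366 at an adjusted p below 0.05. The mesoderm table alone gave 61 and the endoderm table alone 73, of which 48 and 56 were among the 140. Fits that left out 1 library gave 83 to 112 calls: 83 without Jarid2 null mesoderm library 1, 89 without WT mesoderm library 2, 86 and 84 without WT endoderm libraries 1 and 2, and 89 without Jarid2 null endoderm library 1. These fits rest on fewer libraries. The replicate block gave 175 calls. With same-numbered libraries summed, 111 were called, and 334 with the replicate block added, both chosen after seeing the data. DESeq2 called 196 and limma-voom 122. RLE scaling (131) and no scaling (134) moved the median of all genes to -0.02 and -0.03. In the mutant and later-time comparisons, RLE scaling and the replicate block kept every count of calls within 1.5 times of its value. Of 1664 values of single named genes under these alternatives, 1502 kept direction and side of the threshold, 157 kept direction but not the call, 0 reversed and 5 moved. With 4 libraries a genotype, and perhaps 2 cultures behind them, smaller changes and genes of a few counts could not be resolved.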
